A study of Mus musculus with 18 samples.

Results

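Replication-dependent histone genes were followed over 18 single mouse 2-cell embryos. They were taken from the Affymetrix Mouse Gene 1.0 ST table as the probe sets (groups of probes summarised into 1 value) whose annotated gene symbols all belong to the clustered histone genes, H2ac, H2bc, H3c and H4c with a number, and the testis linker histone H1f6 was left out. This gave 38 probe sets of 28815, which name 37 genes of 21327. There were 4 probe sets for H2A, 9 for H2B, 13 for H3 and 12 for H4, and 0 for H1, since the linker histone genes carry symbols of another form. The tested embryos were 9 Parg(110)-/+ embryos, which carry 1 allele of Parg without exons 2 and 3 (Parg encodes poly(ADP-ribose) glycohydrolase) and came from 3 Parg(110)-/- sires called PargA, PargB and PargC. The other 9 were wild-type (WT) embryos of 3 WT sires called WT1, WT2 and WT3. All mothers were WT, all matings were natural and the strain was 129SVE for all embryos, 3 per father. Each embryo is written as its father and a number, and each had an array of its own, for which its RNA was amplified (NuGen WT-Ovation One-Direct kit).

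The study asked whether an altered exchange of histones for protamines in the sperm of such fathers goes along with altered transcripts in their embryos. An effect of the sperm and an effect of the embryo's own Parg allele cannot be told apart in these groups. An embryo at this stage holds RNA stored in the egg as well as RNA of its own, and the array does not separate them. A change in both cells and a larger one in a single cell cannot be told apart either. All values below are log2 values from RMA (robust multichip average), so that a step of 1 is a doubling of signal, and a value of 1 probe set is not set against that of another.

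Core histones H2A, H2B, H3 and H4 form the protein spool of the nucleosome, and linker histone H1 sits where the DNA enters and leaves it. In mammals the bulk of core histone is made in S phase from many small, near-identical genes that stand in clusters. Their mRNAs end in a conserved stem-loop in place of a poly(A) tail. Stem-loop binding protein (SLBP) holds that end through processing, export and translation, the U7 small nuclear ribonucleoprotein guides the cut that makes it, and NPAT switches the genes on at the start of S phase. How evenly the amplification copied RNA without a poly(A) tail was not tested here.

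The genes lay mostly in the large cluster of chromosome 13 and partly in the small cluster of chromosome 3 (RefSeq, GRCm38.p6). H2bc18, H2bc21, H3c13, H3c14, H3c15 and H4c14 were on chromosome 3 and all other member genes on chromosome 13. Because the genes are so alike, 16 of the 38 probe sets name several genes each, and 22 name exactly 1 gene. 10 H3 probe sets name the same 12 genes and are called the H3 family here. 5 H4 probe sets name the same 11 genes and are called the H4 family, and 2 of these 5 hold identical values in every embryo. After each probe set was set to a mean of 0 the 10 of the H3 family differed by at most 0.375 in any embryo, and the 5 of the H4 family by at most 0.113. They are therefore near copies of 1 reading, and counts over the 38 probe sets lean on the H3 and H4 families. Averaging probe sets of the same genes leaves 25 readings, which are used where embryos are counted.

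H2ac1 and H2bc1 encode TH2A and TH2B, histone forms known in the mouse from testis and oocyte, and both stand out below. They are neighbours on chromosome 13 that face away from each other, with H2bc1 at 23933725 to 23934156 on the minus strand and H2ac1 at 23934437 to 23934913 on the plus strand. The gap between them is 280 bases. The 250 bases before the start of H2ac1 are printed because they fill most of this shared gap. Those of H4c4 and H2bc14 are printed since these genes had a genotype p among the smallest of their types. Capitals mark the motifs TATAAA (the TATA box), CCAAT and ATTTGCAT (the octamer), searched on both strands. The windows are intergenic, from RefSeq for GRCm38.p6, and lie on the plus strand at chr13:23934187-23934436 for H2ac1, chr13:23581318-23581567 for H4c4 and chr13:21721794-21722043 for H2bc14.
H2ac1: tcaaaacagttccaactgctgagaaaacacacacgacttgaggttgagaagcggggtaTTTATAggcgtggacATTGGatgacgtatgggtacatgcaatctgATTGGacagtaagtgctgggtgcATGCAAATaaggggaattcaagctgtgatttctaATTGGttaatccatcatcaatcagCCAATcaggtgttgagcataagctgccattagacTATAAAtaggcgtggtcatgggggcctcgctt
H4c4: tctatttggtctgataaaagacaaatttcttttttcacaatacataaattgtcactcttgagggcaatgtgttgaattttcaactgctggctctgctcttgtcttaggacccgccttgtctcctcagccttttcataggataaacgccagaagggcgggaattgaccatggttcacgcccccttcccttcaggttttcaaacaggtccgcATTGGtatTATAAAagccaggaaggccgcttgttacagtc
H2bc14: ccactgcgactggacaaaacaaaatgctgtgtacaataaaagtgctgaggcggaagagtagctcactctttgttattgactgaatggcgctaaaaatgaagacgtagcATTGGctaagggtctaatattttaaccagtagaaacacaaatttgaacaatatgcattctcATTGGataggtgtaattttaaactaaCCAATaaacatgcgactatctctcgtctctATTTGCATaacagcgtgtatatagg

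Promoters of 32 of the 37 genes were found in the RefSeq table. TATAAA was present in 17 of these 32 windows of 250 bases (53.1%), against 12.3% of 32536 such windows over all genes. CCAAT was present in 22 (68.8%), against 33.8% of all windows. The octamer was present in 8 (25.0%), against 1.62% of all windows, and all 8 stood before H2A or H2B genes: H2ac1, H2ac4, H2ac8, H2bc1, H2bc3, H2bc8, H2bc14 and H2bc18. The windows of H2ac1 and H2bc1 overlap, as do those of H2ac8 and H2bc8, and each of these pairs shares its octamer. The 8 windows therefore hold fewer than 8 separate octamers, and a match is a run of letters, not a measured site. The nearest TATAAA began 32 bases before the start in both H2ac1 and H4c4, and the window of H2bc14 held none.

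No histone probe set passed the test between the genotypes. With limma and a limit of 0.1 on p adjusted by Benjamini-Hochberg over the 28815 probe sets, 0 of 38 were called, and 0% of all probe sets. At an unadjusted p under 0.05 there were 4 of 38 (10.5%), all higher in Parg(110)-/+ embryos, and the share of all probe sets at that limit was also 10.5%, or 8.96% when only those higher in Parg(110)-/+ embryos are counted. The 4 were H2ac1, H4c4, H4c14 and H2bc14. With 1 embryo left out the count lay between 4 and 15, and the 15 were reached without PargC-2, where the share of all probe sets was 10.9%. The 11 added there were H4c3 and the 10 probe sets of the H3 family. The mean was higher in Parg(110)-/+ embryos for 33 of the 38 (86.8%), against 67.1% of all probe sets, and the median difference was 0.20 for the histones and 0.05 for all probe sets. Over the 25 readings, with each family counted once, 20 (80%) had a higher mean in Parg(110)-/+ embryos, the median difference was 0.11 and 4 had an unadjusted p under 0.05. On arrays shifted to equal medians the share with a higher mean was 78.9% for the 38 probe sets and 48% for all probe sets. The share of all probe sets at an unadjusted p under 0.05 also depended on the scaling. It was 6.22% with equal medians and 6.32% after a second quantile normalization, against the 10.5% above.

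**Figure D1:**
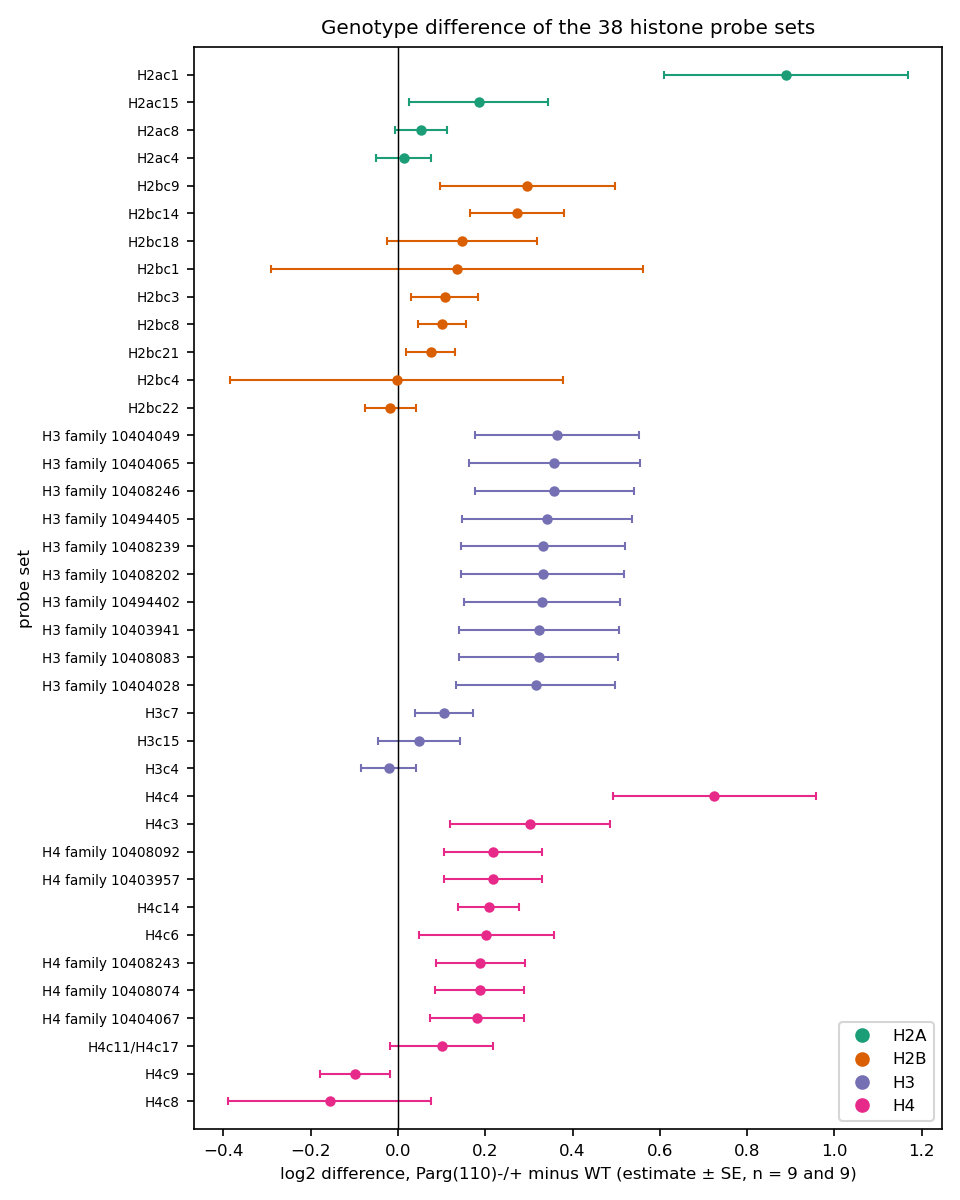
Log2 difference (x axis, Parg(110)-/+ minus WT) of each of the 38 histone probe sets (y axis) with its SE from limma, 9 embryos per genotype, coloured by histone type. H2ac1 at 0.89 and H4c4 at 0.72 lie farthest to the right, the 10 probe sets of the H3 family lie between 0.32 and 0.37, and 5 probe sets lie below 0.

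Of the H2A genes, all 4 had a higher mean in Parg(110)-/+ embryos, with a median difference of 0.12, and 1 had an unadjusted p under 0.05. H2ac1 (TH2A, probe set 10404127) measured 8.12 at the lowest, 8.67 at the median and 10.69 at the highest in Parg(110)-/+ embryos, against 7.80, 8.05 and 8.57 in WT embryos. The highest Parg(110)-/+ values were 10.69 in PargC-2 and 10.12 in PargB-1, and 8 of the 9 Parg(110)-/+ embryos lay above every WT embryo, PargC-1 being the exception. Its mean was 9.06 ± 0.82 in Parg(110)-/+ and 8.17 ± 0.32 in WT embryos (SD, n = 9 each), a difference of 0.89 ± 0.28 (SE, limma adjusted p = 0.362). Without PargC-2 it was 0.68 (adjusted p = 0.368).

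The other H2A genes code for replication-dependent H2A proteins and differed less. H2ac15 measured 6.12, 6.67 and 7.12 (lowest, median, highest) in Parg(110)-/+ embryos, against 6.09, 6.34 and 7.38 in WT embryos. The highest WT value was that of WT1-3, and 5 of the 9 Parg(110)-/+ embryos lay above every other WT embryo, the next of which measured 6.48. The difference was 0.18 ± 0.16 (SE, limma adjusted p = 0.669), or 0.30 ± 0.12 without WT1-3 (unadjusted p under 0.05, limma adjusted p = 0.333) and 0.12 without PargB-3. H2ac4 and H2ac8 are dim probe sets, meaning below 6.47, the median over the means of all probe sets. Their differences were 0.01 ± 0.06 and 0.05 ± 0.06 (SE).

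Of the 9 H2B genes, 7 had a higher mean in Parg(110)-/+ embryos, with a median difference of 0.11. H2bc14 had the smallest p of the type, with 9.19, 9.75 and 10.02 (lowest, median, highest) in Parg(110)-/+ embryos, against 9.19, 9.48 and 9.83 in WT embryos. The groups overlapped, with 4 Parg(110)-/+ embryos above every WT embryo, and the difference was 0.27 ± 0.11 (SE, limma adjusted p = 0.424). H2bc8, a dim probe set and the second by p, differed by 0.10 ± 0.06 (SE, adjusted p = 0.522), 8 of 9 Parg(110)-/+ embryos lying above the WT mean.

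H2bc1 (TH2B) had the widest spread of all 38 probe sets, and its genotype difference was smaller than that spread. It measured 9.29, 10.96 and 11.55 (lowest, median, highest) in Parg(110)-/+ embryos, against 7.98, 10.92 and 11.76 in WT embryos. The lowest Parg(110)-/+ embryo was PargC-2 at 9.29, with the next at 10.1. The lowest WT embryo, WT3-1 at 7.98, lay farther from the next, at 10.3. The means were 10.83 ± 0.74 in Parg(110)-/+ and 10.70 ± 1.12 in WT embryos (SD, n = 9 each), with a difference of 0.14 ± 0.43 (SE, limma adjusted p = 0.919) that became -0.20 without WT3-1. PargC-2 was thus the highest of 18 embryos in H2ac1 and had the second lowest value in H2bc1, the gene next to it. WT3-1, the lowest in H2bc1, also had the second lowest value in H2ac1, at 7.81.

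H2bc4 was dim in most embryos and high in a few. It measured 3.96, 4.14 and 5.80 (lowest, median, highest) in Parg(110)-/+ embryos, against 3.73, 4.08 and 6.83 in WT embryos. The highest values stood in PargA-1 (5.80) and PargB-1 (5.17) among Parg(110)-/+ embryos and in WT3-1 (6.83) and WT3-3 (5.40) among WT embryos. The genotypes differed by -0.0026 ± 0.38 (SE, limma adjusted p = 0.999). Of the remaining H2B genes, H2bc9 differed by 0.30 ± 0.20, H2bc18 by 0.15 ± 0.17, H2bc3 by 0.11 ± 0.08, H2bc21 by 0.08 ± 0.06 and H2bc22 by -0.02 ± 0.06 (SE).

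**Figure D2:**
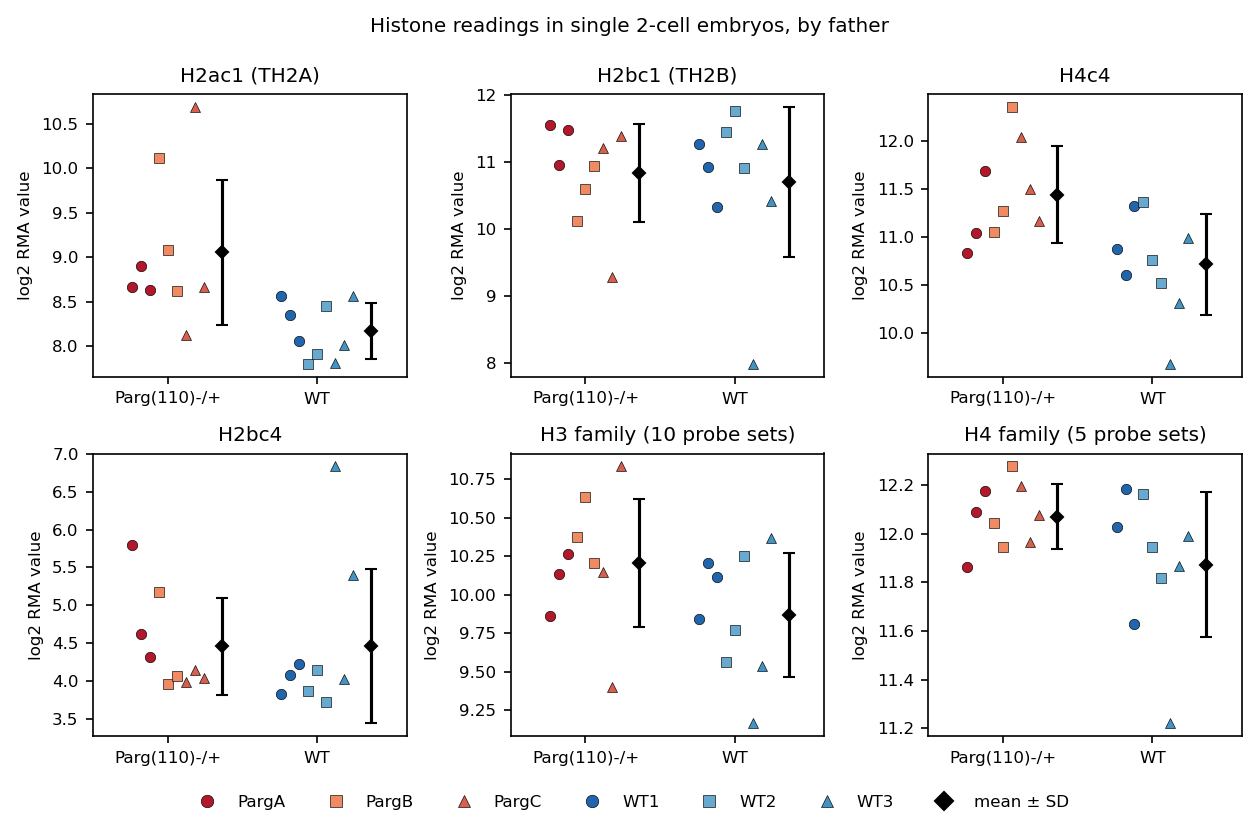
Log2 RMA value (y axis) of 6 histone readings in each embryo, Parg(110)-/+ on the left and WT on the right of each panel, with symbols for the father and a diamond with bar for the mean ± SD of 9 embryos. PargC-2 and PargB-1 stand above the others in H2ac1, and WT3-1 is the lowest embryo in H2bc1, H4c4 and both families and the highest in H2bc4.

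Of the 13 H3 probe sets 12 had a higher mean in Parg(110)-/+ embryos, with a median difference of 0.33, and 0 had an unadjusted p under 0.05. The 10 probe sets of the H3 family averaged into 1 reading measured 9.40, 10.21 and 10.83 (lowest, median, highest) in Parg(110)-/+ embryos, against 9.17, 9.85 and 10.37 in WT embryos. PargC-3, PargB-2 and, by a narrow margin, PargB-1 lay above the WT range, and PargC-2 lay below all but 1 WT embryo. The means were 10.21 ± 0.42 in Parg(110)-/+ and 9.87 ± 0.40 in WT embryos (SD, n = 9 each), with a difference of 0.34 ± 0.18 (SE, limma adjusted p = 0.519). Without PargC-2 all 10 probe sets of the family had an unadjusted p under 0.05, with differences between 0.41 and 0.47 and adjusted p between 0.377 and 0.416. Leaving out others lowered the difference. Probe set 10408246 differed by 0.27 without WT3-1, the lowest embryo, and 10494405 by 0.22 without father PargB (limma unadjusted p = 0.133 and 0.345).

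The smallest p of the type were those of 2 probe sets of this family. Probe set 10408246 differed by 0.36 ± 0.18 (SE, limma adjusted p = 0.495) and 10404049 by 0.37 ± 0.19 (adjusted p = 0.499). The widest spreads were those of 10404065, which is also the brightest H3 probe set, and 10494405, with differences of 0.36 ± 0.19 and 0.34 ± 0.20 (SE). All 10 read the same RNA pool and give no independent support to each other. The 3 H3 probe sets that name 1 gene had smaller differences. H3c7, the dimmest, differed by 0.11 ± 0.07, H3c15 by 0.05 ± 0.09 and H3c4 by -0.02 ± 0.06 (SE). The H3 median rests on the family, since over the type's readings, with the family counted once, it was 0.08.

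Of the 12 H4 probe sets 10 had a higher mean in Parg(110)-/+ embryos, with a median difference of 0.20, and 2 had an unadjusted p under 0.05. H4c4 measured 10.83, 11.27 and 12.35 (lowest, median, highest) in Parg(110)-/+ embryos, against 9.67, 10.75 and 11.37 in WT embryos. All 9 Parg(110)-/+ embryos lay above the WT mean and 4 lay above every WT embryo. The means were 11.44 ± 0.51 in Parg(110)-/+ and 10.71 ± 0.52 in WT embryos (SD, n = 9 each), with a difference of 0.72 ± 0.23 (SE, limma adjusted p = 0.362), or 0.60 without WT3-1 (adjusted p = 0.524).

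H4c14 is the H4 gene of the chromosome 3 cluster that has a probe set of its own. It measured 9.20, 9.39 and 9.68 (lowest, median, highest) in Parg(110)-/+ embryos, against 9.02, 9.16 and 9.39 in WT embryos. The groups overlapped, with 5 Parg(110)-/+ embryos above every WT embryo, and the difference was 0.21 ± 0.07 (SE, limma adjusted p = 0.378). The H4 family averaged 12.07 ± 0.13 in Parg(110)-/+ and 11.87 ± 0.30 in WT embryos (SD, n = 9 each), with a difference of 0.20 ± 0.11 (SE, adjusted p = 0.513). Its brightest probe set, 10408243, differed by 0.19 ± 0.10 (SE), and by 0.11 without the 3 embryos of father WT3.

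The other H4 probe sets had differences of either sign, and none passed the test. H4c3 differed by 0.30 ± 0.18, H4c6 by 0.20 ± 0.16, H4c9 by -0.10 ± 0.08 and the dim probe set shared by H4c11 and H4c17 by 0.10 ± 0.12 (SE). H4c8 measured 6.34, 7.19 and 7.95 (lowest, median, highest) in Parg(110)-/+ embryos, against 6.23, 7.32 and 7.76 in WT embryos. Low values stood in both genotypes, in PargA-2 and PargB-3 and in WT3-2, and its difference was -0.16 ± 0.23 (SE, limma adjusted p = 0.812). It was -0.29 without WT3-2 and -0.061 without PargA-2.

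Counted over embryos, 3 of the 38 probe sets had all 9 Parg(110)-/+ embryos above the WT mean, against 4.33% of all probe sets. These were H4c4 and the 2 identical probe sets of the H4 family. Over fathers, the means of all 3 Parg(110)-/- fathers lay above those of all 3 WT fathers for 14 of 38 probe sets, against 14.1% of all probe sets, and for 6 of the 25 readings. The 6 readings were H2ac1, H2bc14, H4c4, H4c14 and the H3 and H4 families. For H2ac1 the father means were 8.74 for PargA, 9.27 for PargB and 9.16 for PargC, against 8.32 for WT1, 8.05 for WT2 and 8.13 for WT3. For H4c4 they were 11.19 for PargA, 11.56 for PargB and 11.57 for PargC, against 10.93 for WT1, 10.88 for WT2 and 10.33 for WT3.

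The embryos of each Parg(110)-/- father were also set against the 9 WT embryos. Limma called 0 of 38 histone probe sets in each of the families PargA, PargB and PargC, against 0%, 0.0139% and 0.0104% of all probe sets, and 1, 5 and 7 of the 38 had an unadjusted p under 0.05, against 5.32%, 12.8% and 7.24% of all probe sets. These comparisons share their WT embryos. In PargB the order by p was H4c14 (0.29 ± 0.10, SE), H2ac1 (1.10 ± 0.40), H4c4 (0.84 ± 0.34) and the H3 family probe sets 10494402 and 10494405. In PargC the dim probe sets H2bc21 (0.22 ± 0.06) and H3c7 (0.27 ± 0.08) came first. H4c14, H2bc8, H4c4 (0.86 ± 0.34), H2bc14 and H2ac1 (0.99 ± 0.40) followed there. In PargA the 1 probe set was H2bc18, at 0.52 ± 0.22 (SE, limma adjusted p = 0.922), and its 3 embryos measured 8.31, 8.41 and 8.39. Between the 3 fathers of a genotype limma's F test called 0 of 38 among Parg(110)-/+ and 0 of 38 among WT embryos, against 0.0104% and 0.00347% of all probe sets, and 1 of 38 in each genotype had an unadjusted p under 0.05, against 5.34% of all probe sets among Parg(110)-/+ and 4.39% among WT embryos.

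Single embryos were set against the WT embryos, each Parg(110)-/+ embryo against all 9 and each WT embryo against the other 8. The share of all probe sets called was 0.628%, 0.635% and 0.604% in PargA-1 to PargA-3, 2.17%, 0.691% and 0.826% in PargB-1 to PargB-3, and 0.76%, 0.625% and 0.843% in PargC-1 to PargC-3. It was 0.732%, 0.479% and 0.708% in WT1-1 to WT1-3, 0.93%, 0.68% and 0.6% in WT2-1 to WT2-3, and 1.15%, 0.732% and 0.569% in WT3-1 to WT3-3. Of the histones 2 calls were made in 2 Parg(110)-/+ embryos and 3 calls in 2 WT embryos. PargB-1 and WT3-1 also had the largest share of calls over all probe sets within their genotypes.

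Both calls among Parg(110)-/+ embryos were H2ac1. It was 1.95 ± 0.31 above the WT mean in PargB-1 (SE, limma adjusted p = 0.0149) and 2.52 ± 0.31 in PargC-2 (adjusted p = 0.00574). With any 1 WT embryo left out, the adjusted p lay between 0.015 and 0.032 in PargB-1 and between 0.0066 and 0.015 in PargC-2. H4c4 took no call in any Parg(110)-/+ embryo, its farthest value being that of PargB-3, at 1.64 ± 0.51 (SE, adjusted p = 0.318).

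Among WT embryos, H2ac15 was higher in WT1-3 by 1.07 ± 0.14 (SE, limma adjusted p = 0.0173). In WT3-1 H2bc1 was lower, at -3.06 ± 0.48 (adjusted p = 0.0282), and H2bc4 was higher, at 2.67 ± 0.51 (adjusted p = 0.0667). WT3-1 had the lowest value of all 18 embryos in 6 of the 25 readings, and it lay below the 18-embryo mean in 15 of the 16 bright readings. The H3 family was 0.87 and the H4 family 0.75 below their 18-embryo means there, and 19 of the 38 probe sets had an unadjusted p under 0.05 in this embryo, against 7.34% of all probe sets. Counts over the 38 lean on these families, whose probe sets are near copies of 1 reading each. The corresponding count was 11 in PargC-3, against 5.86% of all probe sets, and the 10 H3 family probe sets, near copies of 1 reading, lay between 0.88 and 1.01 above the WT mean there.

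**Figure D3:**
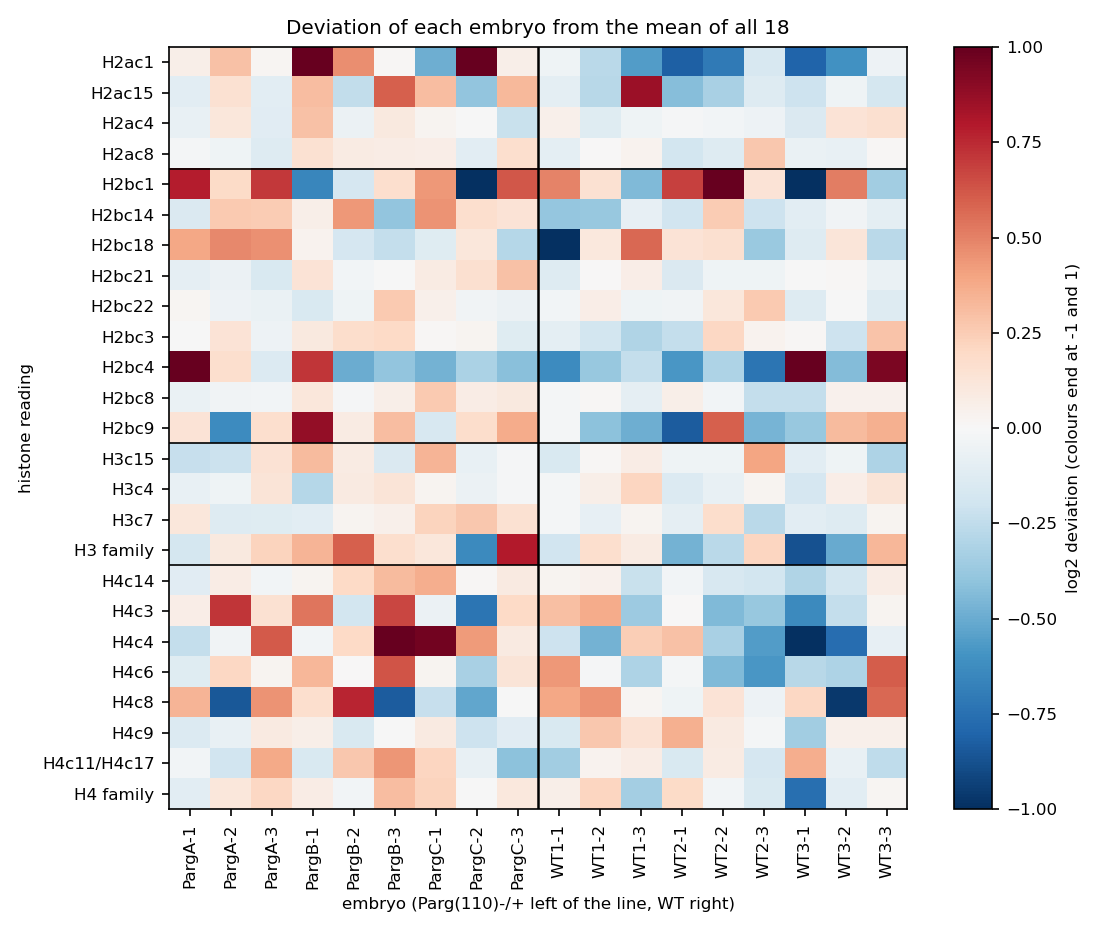
Deviation of each embryo (x axis) from the mean of all 18 embryos for the 25 histone readings (y axis), on the log2 scale, with Parg(110)-/+ embryos left of the line, WT embryos right of it and colours ending at -1 and 1. The column of WT3-1 is blue in most bright readings, and PargC-2 is red in H2ac1 and blue in H2bc1 and the H3 family.

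The spread over all 18 embryos was described by the SD of the log2 values. Its median was 0.35 over the 38 probe sets, against 0.20 over all probe sets, and 0.42 over the 29 bright ones, against 0.32 over all bright probe sets. Over the 25 readings it was 0.25, and 0.36 over the 16 bright readings. By type the median SD was 0.24 for H2A, 0.27 for H2B, 0.43 for H3 and 0.26 for H4. The H3 value is that of the family, since it was 0.14 over the 3 H3 probe sets of 1 gene. Within a genotype the median SD of the 38 was 0.30 in Parg(110)-/+ and 0.33 in WT embryos, against 0.19 in each over all probe sets. Over the 25 readings the order was reversed, at 0.27 in Parg(110)-/+ and 0.21 in WT embryos.

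Spread depends on level on these arrays, so each probe set was set beside those of like mean, in steps of 0.5. H2bc1, with an SD of 0.92, was wider than 96.1% of 665 such probe sets. H4c4 (SD 0.62) was wider than 93.5% of 647, and H2bc4 (SD 0.82) than 92.5% of 1594. The 3 brightest H4 family probe sets (SD 0.23 to 0.24) were wider than 91.2% to 92.5% of 320. At the other end H4c14 (SD 0.18) was wider than 1.95% of 819, H2bc22 (SD 0.12) than 4.54% of 2468 and H2bc14 (SD 0.27) than 8.70% of 805. H2ac1 (SD 0.76) was wider than 73.1% of 931, and the 10 H3 family probe sets than 30.5% to 53.3% of theirs. Genes of 1 type, such as H4c4 and H4c14, thus stood at opposite ends.

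**Figure D4:**
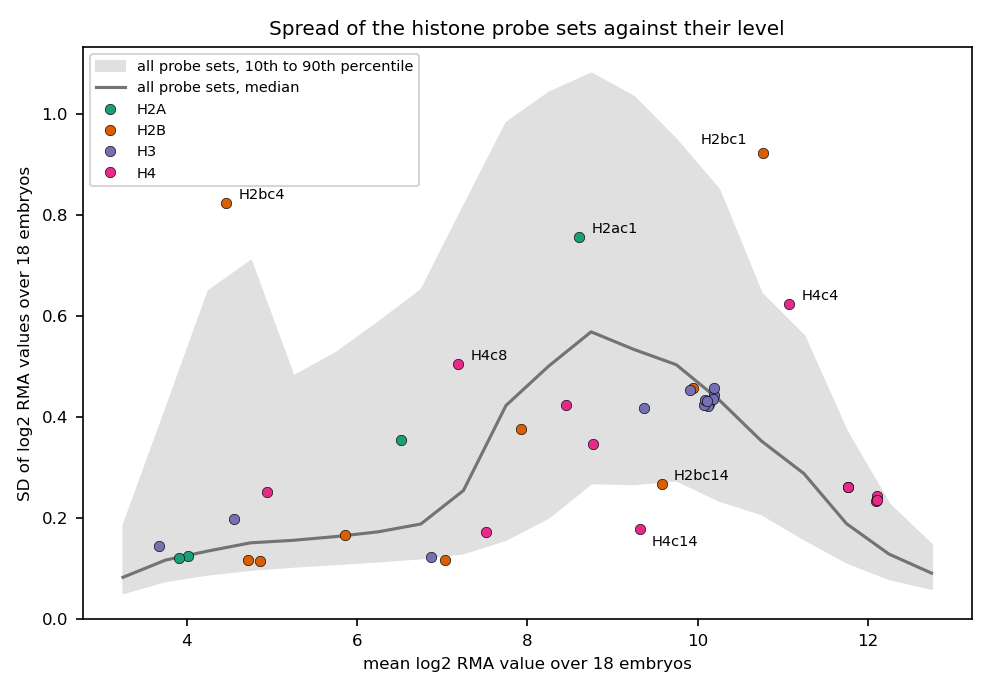
SD over 18 embryos (y axis) against the mean log2 RMA value (x axis) of the 38 histone probe sets, coloured by type, with the median (line) and the 10th to 90th percentile (band) of all probe sets in steps of 0.5. H2bc1, H2bc4 and H4c4 lie above the band, the brightest H4 family probe sets lie at its upper edge, and H4c14, H2bc14 and H2bc22 lie at or below its lower edge.

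The annotation places further histone probe sets outside the clustered symbols, since they also name other genes. 7 probe sets read 14 to 15 genes that are mostly H2B, and 2 read 19 to 20 genes that are mostly H2A and include H2ax. The H2B set averaged 10.69 ± 0.21 in Parg(110)-/+ and 10.35 ± 0.16 in WT embryos (SD, n = 9 each), with differences between 0.28 and 0.38 for its probe sets and limma adjusted p = 0.362 for each of them. The H2A set averaged 10.56 ± 0.19 in Parg(110)-/+ and 10.21 ± 0.21 in WT embryos, with differences of 0.27 and 0.43 and adjusted p between 0.362 and 0.433. None passed the test, and all 9 had an unadjusted p under 0.05. The share of all probe sets at that limit was 10.5%, or 8.96% when only those higher in Parg(110)-/+ embryos are counted. These 9 were not run under other scalings or with embryos left out. The probe sets within each set name largely the same genes, and 2 of the 7 hold identical values in every embryo. Of the 8 other histone probe sets outside the clustered symbols 1 had an unadjusted p under 0.05, H2bu2 at 0.21 ± 0.08 (SE, adjusted p = 0.434). H2aw differed by 0.07 ± 0.22, H4f16 by 0.13 ± 0.26 and the probe set shared by H2bc6 and H1f4 by 0.08 ± 0.06 (SE).

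Of the linker and replacement histones set beside them, 11 of 14 had a probe set of their own and 0 were called. H1f8, the oocyte linker histone, averaged 9.56 ± 0.94 in Parg(110)-/+ and 9.61 ± 0.44 in WT embryos (SD, n = 9 each). H3f3a, which encodes the replacement histone H3.3, differed by -0.03 ± 0.10 and H2ax, the H2A form phosphorylated at DNA breaks, by -0.015 ± 0.24 (SE). H1f1 differed by 0.14 ± 0.10 and H1f2, H1f3 and H1f5 by -0.05 ± 0.14, 0.01 ± 0.06 and -0.0048 ± 0.28 (SE). Of the 11, 1 had an unadjusted p under 0.05, the linker histone gene H1f10 at 0.15 ± 0.06 (SE, limma adjusted p = 0.451), with 5 of 9 Parg(110)-/+ embryos above every WT embryo. H2az2, which encodes a replacement H2A of the H2A.Z kind, differed by -0.40 ± 0.21 (SE, adjusted p = 0.502), with 4 of 9 Parg(110)-/+ embryos below every WT embryo.

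Regulators of histone mRNA were read from a list of genes for its transcription, end processing, export, translation and decay, of which 31 of 32 had a probe set. Limma called 0 of 31, against 0% of all probe sets. Of the 31, 13 (41.9%) had a higher and 18 a lower mean in Parg(110)-/+ embryos, against 67.1% of all probe sets with a higher mean. At an unadjusted p under 0.05 there were 3 (9.68%), all lower, against 10.5% of all probe sets in either direction. That 10.5% is not a share of lower probe sets, since 2583 of its 3018 probe sets were higher in Parg(110)-/+ embryos. These 3 were Upf1, a helicase of RNA decay that also acts on histone mRNA, at -0.32 ± 0.08, E2f1, a transcription factor of S phase entry, at -0.25 ± 0.09, and Ncbp1, the large subunit of the nuclear cap-binding complex, at -0.42 ± 0.19 (SE), with limma adjusted p of 0.362, 0.381 and 0.466. Upf1 measured 7.98, 8.18 and 8.56 (lowest, median, highest) in Parg(110)-/+ embryos, against 8.32, 8.54 and 8.83 in WT embryos. The difference of Ncbp1 was -0.28 without PargB-1 (limma adjusted p = 0.551), and its unadjusted p was then above 0.05.

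The core factors of histone gene expression did not pass the test, and limma's adjusted p for the first 4 given here lay between 0.620 and 0.737. Slbp averaged 11.67 ± 0.17 in Parg(110)-/+ and 11.57 ± 0.25 in WT embryos (SD, n = 9 each, here and for the next 3 genes). Casp8ap2, a partner of the U7 machinery, averaged 11.33 ± 0.14 in Parg(110)-/+ and 11.26 ± 0.17 in WT embryos. Npat averaged 8.29 ± 0.95 in Parg(110)-/+ and 7.93 ± 0.74 in WT embryos, the widest spread of these first 4 genes. Lsm11, a U7 ribonucleoprotein subunit, averaged 7.14 ± 0.17 in Parg(110)-/+ and 7.04 ± 0.14 in WT embryos. Lsm10, its partner subunit, differed by -0.61 ± 0.47 (SE, limma adjusted p = 0.632), with 4 of 9 Parg(110)-/+ embryos below every WT embryo. The SD of Lsm10 was wider than that of Npat, at 1.17 in Parg(110)-/+ and 0.91 in WT embryos. Hinfp, a transcription factor of H4 genes, differed by -0.06 ± 0.30 (SE, adjusted p = 0.951).

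As a check of the labelled stage, 8 of 8 oocyte markers with a probe set were bright, and their mean ran from 10.58 to 11.22 in Parg(110)-/+ and from 10.63 to 11.34 in WT embryos. The 3 of 8 markers of the 2-cell stage that had a probe set of their own were bright as well, with a mean from 8.44 to 10.31 in Parg(110)-/+ and from 8.15 to 10.15 in WT embryos. Blood markers (3 of 6 read) were all dim, with means from 5.42 to 5.58 in Parg(110)-/+ and from 5.32 to 5.60 in WT embryos. Cumulus and oviduct markers (5 of 6 read, 1 bright) ran from 5.69 to 6.06 in Parg(110)-/+ and from 5.53 to 5.84 in WT embryos. Sperm and spermatid markers (6 of 6 read, 3 bright) ran from 6.29 to 6.48 in Parg(110)-/+ and from 6.10 to 6.58 in WT embryos, and markers of proliferating cells (3 of 4 read, all bright) from 10.94 to 11.33 in Parg(110)-/+ and from 11.09 to 11.30 in WT embryos. All 6 spermatid markers had a higher mean in Parg(110)-/+ embryos, as did 67.1% of all probe sets, among them Prm1 by 0.18 and H1f6 by 0.13, both at an unadjusted p under 0.05 (limma adjusted p = 0.362 and 0.409). Of the cumulus and oviduct markers Has2, Ptgs2 and Col1a2 and of the blood markers S100a8 were higher by 0.13 to 0.17 at an unadjusted p under 0.05, and 0 markers were called. Their part in the histone differences was not tested. In WT3-1 the oocyte mean was 10.63, the lowest of the WT embryos, and its part in the low histone values there was not tested.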

How the data were processed

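Arrays of 18 embryos (9 Parg(110)-/+ and 9 WT) were used. The deposited log2 values were made by the authors with RMA in Partek (background correction, quantile normalization, summary of probes), with versions not given in the sources used here. Quantile normalization can shrink a shift shared by most genes, and dim probe sets are compressed. Array medians lay between 6.44 and 6.53 in Parg(110)-/+ embryos (mean 6.48) and between 6.34 and 6.49 in WT embryos (mean 6.42). The number of embryos limits the precision.

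Limma 3.58.1 in R 4.3.3 (lmFit, eBayes, two-sided) was fitted on all 28815 probe sets with Benjamini-Hochberg adjustment and the study's limit of 0.1. Single embryo fits took their spread from WT embryos, under the assumption that 1 embryo alone varies as WT embryos do. Embryos of 1 father are not independent fathers; the consensus correlation within fathers was -0.023. Scripts were tested on simulated data. The members, lists and alternatives were chosen with earlier results of these data known. Named by rule were, for each type, the 2 smallest genotype p, the 2 widest spreads, the brightest and the dimmest probe set, every called member, H2ac1 and H2bc1, and 10 regulators or other histones; further names were added after their values were seen. Genes outside the members entered through their brightest probe set of 1 gene. Alternatives were other scalings, fathers or embryos left out, father means, father as a random block, a trended prior, unmoderated analysis of variance and a filter on dim probe sets.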

Additional observations from a re-analysis of the deposited data

Results flagged for a closer look

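For 35 histone readings, regulators and other histones, the most extreme embryo of each genotype was set against its nearest neighbour as a share of the range (Dixon's 95% limit for 9 embryos). The limit was passed 6 times in 70 groups, where chance passes about 1 in 20. Among Parg(110)-/+ embryos H2bc22 was highest in PargB-3 at 7.29, with the next at 7.09, and H3c4 was lowest in PargB-1 at 6.58, with the next at 6.80. Among WT embryos H2bc1 was lowest in WT3-1 at 7.98, against 10.32 for the next, H4c8 was lowest in WT3-2 at 6.23, against 7.14, H2ac15 was highest in WT1-3 at 7.38, against 6.48, and H2ac8 was highest in WT2-3 at 4.18, against 3.95. The gaps of H2bc22, H3c4 and H2ac8 were under 0.25, and H2ac8 is dim.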

How the results depend on the processing

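The count of histone probe sets called between the genotypes was 0 under every alternative run for it, as were those over families, between fathers and among regulators and other histones under theirs. The count at an unadjusted p under 0.05, 4 in the fit over all embryos, was 8 on means per father and lay between 4 and 15 with a father or an embryo left out. It was 15 without PargC-2, 10 without WT3-3, 8 without WT1-2, WT2-1 or father PargC and 7 without father PargA. For regulators the count at that limit, 3 over all embryos, lay between 2 and 7. It was 2 without WT3-1, 7 without father PargA and 5 without father WT2, WT2-3, WT3-2 or PargA-1. Of these settings only the fit without PargC-2 has a share of all probe sets beside it (10.9%). How far the other counts, of histones or regulators, moved with all probe sets was not tested. The median H2B difference, 0.11, lay between 0.089 and 0.20, highest without father PargC. The median H3 SD, 0.43, was 0.14 over probe sets of 1 gene and 0.17 with probe sets of the same genes averaged, an alternative chosen after seeing the data. Differences near 0 changed sign: H2ac8 was -0.0040 with equal array medians and H2ax 0.035 after a second quantile normalization. With a father or embryo left out, H2bc1 lay between -0.27 and 0.47, H2bc4 between -0.27 and 0.48, Casp8ap2 between -0.0064 and 0.12, H1f8 between -0.35 and 0.19, H3f3a between -0.088 and 0.015 and H2ax between -0.26 and 0.30. All 5 calls in single embryos were made on both rescaled tables too, and the second quantile normalization added H4c8 in WT3-2 (-1.16, limma adjusted p = 0.0929), which makes 4 calls in 3 WT embryos. The causes were not tested. No paired analysis was possible because the groups share no replicate numbers.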
